A study of Mus musculus with 16 samples.

Results

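The collagen chains are the 44 genes whose symbol is Col, a number, the letter a and a number with nothing after it, out of 55278 gene symbols measured in mouse hearts. They were measured by bulk RNA sequencing of heart tissue from male C57BL/6J mice aged 8 to 12 weeks, in 4 groups of 4 libraries. The groups were cardiomyocyte PPARα-deficient mice given LPS, Ppara-flox mice given LPS, PPARα-deficient mice given PBS and Ppara-flox mice given PBS. LPS, the endotoxin of bacterial outer membranes, was injected into the peritoneum at 5 mg/kg, PBS, a buffered saline, was given to the controls, and hearts were taken at 12 h. Ppara-flox mice carry Ppara alleles that Cre recombinase can cut, and PPARα-deficient mice lack the receptor in heart muscle cells, so the other cells of the heart keep the gene. The Cre line and its promoter are not named in the labels. No group carried Cre without the floxed alleles, so effects of Cre and of the deletion cannot be told apart.

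Collagens are secreted matrix proteins whose chains wind into a stiff helix inside the endoplasmic reticulum before export. Fibrillar collagens (types I, III, V, XI and others) build the tension-bearing fibres between muscle bundles and are made in the heart mainly by fibroblasts. Type IV chains form sheet-like networks in the basement membranes around cardiomyocytes and vessels, and the multiplexins, types XV and XVIII, sit in or beside those membranes. Type VI forms beaded microfilaments that tie cells and basement membranes to the fibres. Fibril-associated collagens (FACITs) coat fibres, and type VIII forms hexagonal networks known from vessel walls. By class the 44 genes were 11 fibrillar, 6 basement membrane network, 2 multiplexin, 6 microfibrillar, 9 FACIT, 3 hexagonal network, 1 anchoring fibril, 4 transmembrane and 2 other chains.

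The deposited estimated counts of a library came to between 65569134 and 75436023, and because small values cluster at multiples of 4, a read pair was taken to count as about 4. Levels are library-scaled counts (CPM, with TMM factors), and each ± is the SD over 4 libraries for a level, or the standard error for a log2 fold change. A gene was called at a Benjamini-Hochberg adjusted p under 0.05 in edgeR's quasi-likelihood test over the 18713 genes that passed the filter on low counts. Of the 44 chains 35 passed. Ppara, the targeted gene, averaged 7.98 ± 3.38 CPM in PPARα-deficient LPS hearts, 11.3 ± 3.31 CPM in Ppara-flox LPS hearts, 14.6 ± 2.58 CPM in PPARα-deficient PBS hearts and 50.2 ± 9.86 CPM in Ppara-flox PBS hearts. It was lower in PPARα-deficient hearts after PBS (log2 fold change -1.79 ± 0.28, edgeR adjusted p = 0.00287) and did not pass after LPS (-0.50 ± 0.27, adjusted p = 0.651). Ins1 and Ins2, which mark pancreatic islets, were at 0 counts in all 16 libraries and the cardiomyocyte gene Myh6 was at 17900.0 CPM or more, unscaled, in each. The labels number the libraries of a group without saying that each is a separate mouse, so p-values measure the spread between these libraries.

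Within each of the 4 groups the libraries differed in the number of chains for which they were highest or lowest. Over the 28 chains at or above 0.138 CPM in all 16 libraries, PPARα-deficient LPS replicate 4 was the highest of its group for 17 chains and replicate 3 the lowest for 16. Ppara-flox LPS replicate 3 was the highest of its group for 21 and replicate 4 the lowest for 18. PBS groups were uneven too. PPARα-deficient PBS replicate 2 was the highest of its group for 14 and replicate 1 the lowest for 12. Ppara-flox PBS replicate 2 was the highest of its group for 14 and replicate 4 the lowest for 16. These counts weigh every chain alike and were not made over all tested genes. PPARα-deficient LPS replicate 4, for example, had the lowest Col4a1 of its group (1081 CPM). The first principal component was taken over the 1000 tested genes with the largest variance. On it, PPARα-deficient LPS replicate 4 (42.2) and Ppara-flox LPS replicate 3 (39.6) lay nearer to the PBS libraries than the other 6 LPS libraries (50.7 to 54). Counts of calls are therefore also given without these 2 LPS libraries, an alternative chosen after the data were seen. On the same component PPARα-deficient PBS replicate 4 (-40.9) lay nearer to the LPS libraries than the other PBS libraries (-52.8 to -47.8). PBS libraries, this one included, were left out 1 at a time only.

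LPS moved the collagens in opposite directions: the abundant type IV pair Col4a1 and Col4a2 rose in both genotypes, while most tested fibrillar chains, all 4 tested microfibrillar chains and Col8a1 fell. Among PPARα-deficient hearts, LPS gave 4 higher and 17 lower calls in the 35 tested chains, against 37.7% of all tested genes called in either direction (19.4% higher and 18.3% lower). In Ppara-flox hearts 3 were called higher and 18 lower, against 39.3% of all tested genes (20.2% higher and 19.1% lower). The median log2 fold change of the tested chains was -0.80 in PPARα-deficient and -0.96 in Ppara-flox hearts, and the median of all tested genes was 0.01 in each. Without PPARα-deficient LPS replicate 4 and Ppara-flox LPS replicate 3, 21 chains were called in PPARα-deficient hearts (20 of them called with all libraries) and 23 in Ppara-flox hearts (21 of them).

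Called in both genotypes were 3 chains that rose (Col4a1, Col4a2 and Col22a1) and 15 that fell (Col1a2, Col4a3, Col4a4, Col5a1, Col5a2, Col5a3, Col6a1, Col6a2, Col6a3, Col6a6, Col8a1, Col14a1, Col15a1, Col16a1 and Col27a1). In bulk tissue, fewer cells of a type and less RNA per cell cannot be told apart. No chain was called in opposite directions in the 2 genotypes. The 11 chains called in neither genotype were Col3a1, Col4a5, Col4a6, Col8a2, Col9a2, Col9a3, Col12a1, Col13a1, Col20a1, Col23a1 and Col25a1. Of these, Col3a1, Col4a5, Col12a1 and Col23a1 passed in Ppara-flox hearts, and Col23a1 in PPARα-deficient hearts, when the 2 number series of the PBS column headers were a block, an alternative chosen after the data were seen. PBS replicates 3 and 4 of each genotype formed the second series, and all LPS libraries were put with the first. This block therefore also shifts the PBS level that LPS is compared with.

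The summed level of all 44 chains was 2923, 2848, 2609 and 2847 CPM in PPARα-deficient LPS hearts and 2951, 2669.5, 3217 and 2508 CPM in Ppara-flox LPS hearts. It was 2149, 2529, 2128 and 2428 CPM in PPARα-deficient PBS hearts and 2584, 2812, 2222 and 2003 CPM in Ppara-flox PBS hearts. All 4 PPARα-deficient LPS libraries exceeded their PBS libraries, and in Ppara-flox hearts the ranges overlapped. Col4a1 and Col4a2 together took 75.1% ± 3.0 of that sum in PPARα-deficient LPS hearts, against 52.9% ± 1.94 in PPARα-deficient PBS hearts. The same share was 76.9% ± 2.12 in Ppara-flox LPS hearts and 50.7% ± 1.7 in Ppara-flox PBS hearts, so the LPS and PBS libraries did not overlap in either genotype. The other 42 chains summed to 702 ± 104 CPM in PPARα-deficient LPS hearts, 659 ± 127 CPM in Ppara-flox LPS hearts, 1085 ± 88.2 CPM in PPARα-deficient PBS hearts and 1184 ± 169 CPM in Ppara-flox PBS hearts. Without the type IV pair, the family's level was thus lower in LPS hearts.

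**Figure D1:**
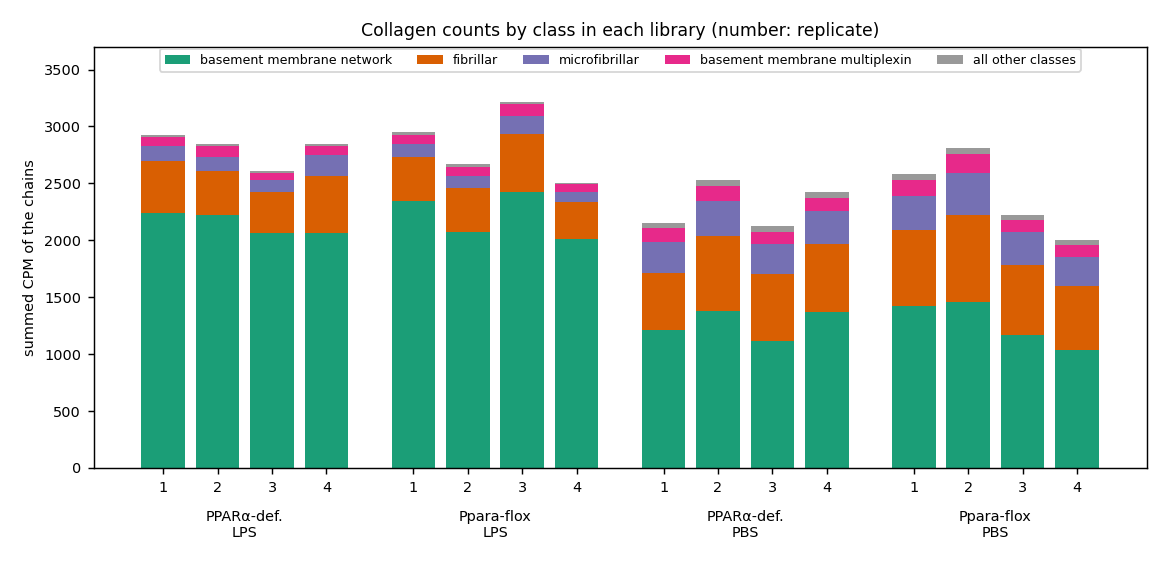
Summed CPM of the collagen chains (y axis) in each of the 16 libraries (bars, numbered by replicate within group), coloured by class. The basement membrane network segment, almost all Col4a1 and Col4a2, was higher in the 8 LPS libraries than in the 8 PBS libraries and the microfibrillar segment smaller, while the fibrillar segment was smaller after LPS within each genotype, with Ppara-flox LPS replicate 3 (513 CPM) above PPARα-deficient PBS replicate 1 (506 CPM).

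The basement membrane network split by chain pair. Col4a1 and Col4a2 encode the chains of the common type IV trimer, found in nearly every basement membrane. They lie head to head on chromosome 8, Col4a1 at chr8:11198423-11312826 on the minus strand and Col4a2 at chr8:11312805-11449287 on the plus strand (GRCm38, GENCODE vM21), and their annotated exons overlap by 22 bases. Because the chains rose together, the promoter windows of both genes are shown (250 bases before to 50 after each start, 5′ to 3′, from RefSeq for GRCm38.p6), with the 78 bases that the windows share, chr8:11312777-11312854, in capitals.
Col4a1 chr8:11312777-11313076 minus strand: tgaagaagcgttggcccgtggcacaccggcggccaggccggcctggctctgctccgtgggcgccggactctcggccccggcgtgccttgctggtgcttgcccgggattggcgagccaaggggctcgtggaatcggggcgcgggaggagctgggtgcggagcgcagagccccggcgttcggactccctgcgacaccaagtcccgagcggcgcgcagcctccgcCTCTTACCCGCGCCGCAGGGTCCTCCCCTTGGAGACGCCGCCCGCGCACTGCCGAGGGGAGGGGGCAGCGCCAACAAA
Col4a2 chr8:11312555-11312854 plus strand: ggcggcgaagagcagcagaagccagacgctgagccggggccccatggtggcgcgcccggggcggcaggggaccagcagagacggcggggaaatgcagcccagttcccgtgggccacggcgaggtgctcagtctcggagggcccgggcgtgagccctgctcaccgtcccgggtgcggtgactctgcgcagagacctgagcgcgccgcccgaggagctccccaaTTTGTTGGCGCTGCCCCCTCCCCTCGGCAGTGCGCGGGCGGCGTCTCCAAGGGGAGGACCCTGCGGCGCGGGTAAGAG

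Col4a1 stood at 1167, 1147, 1101 and 1081 CPM in PPARα-deficient LPS hearts, against 643, 739, 589 and 736 CPM in PPARα-deficient PBS hearts. It stood at 1220.4, 1063, 1269.5 and 1061 CPM in Ppara-flox LPS hearts, against 752, 675, 559 and 493 CPM in Ppara-flox PBS hearts. Every LPS library was above every PBS library. The log2 fold change was 0.73 ± 0.12 in PPARα-deficient hearts (edgeR adjusted p = 9.31e-05) and 0.90 ± 0.12 in Ppara-flox hearts (adjusted p = 1.21e-05). Col4a2 was 1029, 1034, 926 and 935 CPM in PPARα-deficient LPS hearts, against 516, 589, 485 and 597 CPM in PPARα-deficient PBS hearts. Col4a2 was 1089, 982, 1110.5 and 912 CPM in Ppara-flox LPS hearts, against 619.5, 729, 565 and 491 CPM in Ppara-flox PBS hearts. Its groups did not overlap either, and its log2 fold changes were 0.84 ± 0.11 in PPARα-deficient hearts (edgeR adjusted p = 1.33e-05) and 0.77 ± 0.11 in Ppara-flox hearts (adjusted p = 3.2e-05). The ratio of Col4a1 to Col4a2 per exon length ran from 1.08 to 1.16 in PPARα-deficient LPS hearts, 1.06 to 1.13 in Ppara-flox LPS hearts, 1.18 to 1.22 in PPARα-deficient PBS hearts and 0.903 to 1.18 in Ppara-flox PBS hearts. Both chains thus kept per-length levels of similar size. In PPARα-deficient hearts the ratio was lower after LPS without overlap, and in Ppara-flox hearts the ranges overlapped. The difference in ratio was not tested.

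Col4a3 and Col4a4, chains of a specialised type IV network best known from the kidney glomerulus, moved the other way. They too lie head to head, with 72 bases between their annotated starts on chromosome 1. The Col4a4 window is shown because it is on the falling side of the same gene class, with the 1 match to AGGTCA (the half-site that nuclear receptors such as PPARα bind) in capitals.
Col4a4 chr1:82586800-82587099 minus strand: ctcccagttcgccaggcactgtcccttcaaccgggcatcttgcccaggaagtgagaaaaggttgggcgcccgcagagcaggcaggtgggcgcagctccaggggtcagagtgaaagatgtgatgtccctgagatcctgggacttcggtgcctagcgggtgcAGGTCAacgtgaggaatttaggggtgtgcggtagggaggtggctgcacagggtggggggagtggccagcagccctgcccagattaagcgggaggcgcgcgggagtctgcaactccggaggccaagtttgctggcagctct
Col4a4 was 3.6, 3.62, 3.06 and 4.67 CPM in PPARα-deficient LPS hearts, against 6.04, 9.62, 7.73 and 7.83 CPM in PPARα-deficient PBS hearts. Col4a4 was 2.73, 4.46, 6.56 and 3.37 CPM in Ppara-flox LPS hearts, against 10.2, 8.66, 9.17 and 9.05 CPM in Ppara-flox PBS hearts. Within each genotype LPS and PBS libraries did not overlap, and the log2 fold changes were -1.06 ± 0.23 in PPARα-deficient hearts (edgeR adjusted p = 0.00135) and -1.11 ± 0.23 in Ppara-flox hearts (adjusted p = 0.000853). Between genotypes Col4a4 was not called (-0.20 ± 0.23 after LPS and -0.25 ± 0.22 after PBS), and the part of the AGGTCA match was not tested. Col4a3 averaged 1.85 ± 0.731 CPM in PPARα-deficient LPS hearts, against 3.95 ± 0.432 CPM in PPARα-deficient PBS hearts, and 2.19 ± 0.951 CPM in Ppara-flox LPS hearts, against 4.0 ± 1.18 CPM in Ppara-flox PBS hearts. Its log2 fold changes were -1.10 ± 0.32 in PPARα-deficient hearts (edgeR adjusted p = 0.0124) and -0.87 ± 0.32 in Ppara-flox hearts (adjusted p = 0.0396). The Ppara-flox call of Col4a3 was lost in 8 of the alternatives run, and its exons share 563 bases with an opposite-strand transcript, C430014B12Rik, whose reads cannot be told apart where counting ignored strand.

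Col4a5 and Col4a6, also head to head on the X chromosome, were not called, but in Ppara-flox hearts Col4a5 passed with upper-quartile factors or the PBS number series as a block, and Col4a6 without PBS replicate 4. Col4a5, which pairs with Col4a3 and Col4a4 chains or with Col4a6, held 35.1 ± 1.31 CPM in PPARα-deficient LPS hearts, against 35.7 ± 5.48 CPM in PPARα-deficient PBS hearts. It held 30.7 ± 4.8 CPM in Ppara-flox LPS hearts, against 36.4 ± 2.1 CPM in Ppara-flox PBS hearts. The log2 fold changes were -0.02 ± 0.12 (edgeR adjusted p = 0.901, 95% interval -0.27 to 0.22) in PPARα-deficient hearts and -0.25 ± 0.12 (adjusted p = 0.106, interval -0.49 to -0.00) in Ppara-flox hearts. Col4a6 averaged under 1 CPM in every group, and its interval of -2.48 to 0.14 in PPARα-deficient hearts leaves its direction undetermined.

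The multiplexins, proteoglycans of basement membrane zones, were called in opposite directions in PPARα-deficient hearts. Col15a1 was 59.8, 73, 41.4 and 55 CPM in PPARα-deficient LPS hearts, against 113, 119.8, 98.7 and 106 CPM in PPARα-deficient PBS hearts. Col15a1 was 62.3, 64.5, 84.2 and 47.3 CPM in Ppara-flox LPS hearts, against 128, 147, 95.7 and 88.7 CPM in Ppara-flox PBS hearts. It fell in both genotypes (-0.93 ± 0.19 and adjusted p = 0.000975 in PPARα-deficient hearts, -0.83 ± 0.19 and adjusted p = 0.00231 in Ppara-flox hearts, edgeR), and no LPS library reached its PBS group's lowest. Col18a1, whose C-terminal fragment is the angiogenesis inhibitor endostatin, was 17.2, 18.2, 20.8 and 22.5 CPM in PPARα-deficient LPS hearts, against 9.82, 16.5, 9.49 and 14.9 CPM in PPARα-deficient PBS hearts. It was called higher there (0.64 ± 0.21, edgeR adjusted p = 0.024). In Ppara-flox hearts Col18a1 was 17, 18.7, 13.5 and 16.2 CPM after LPS, against 11.2, 19.6, 11.4 and 10.6 CPM after PBS, and did not pass (0.31 ± 0.21, edgeR adjusted p = 0.265). It did pass there when Ppara-flox PBS replicate 2, the library at 19.6 CPM, was left out. The call in PPARα-deficient hearts was lost when PBS replicate 1 or 3, or LPS replicate 3 or 4, was left out (adjusted p = 0.0518 to 0.08) or the PBS number series was a block (0.12), and the difference between genotypes in the LPS effect was 0.33 ± 0.30 (adjusted p = 0.999).

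**Figure D2:**
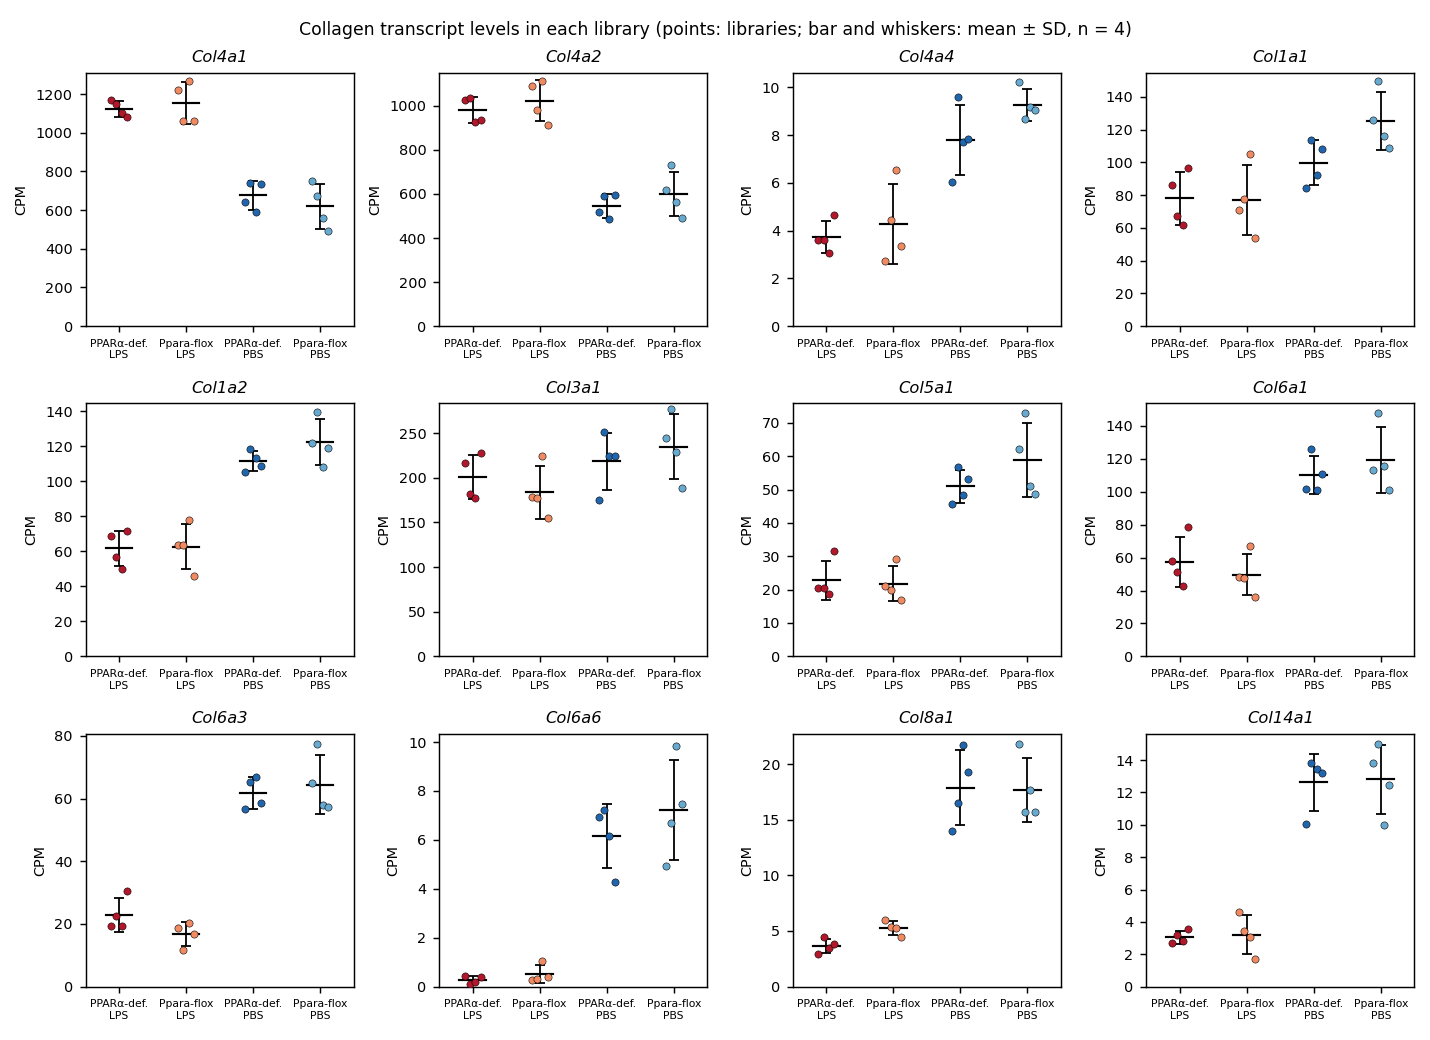
CPM (y axes, linear from 0) of 12 collagen chains in each library (points) with mean and SD (n = 4 per group), for PPARα-deficient and Ppara-flox hearts after LPS and after PBS. Col4a1 and Col4a2 were higher after LPS in every library, Col1a1 and Col3a1 overlapped between treatments in PPARα-deficient hearts, and Col6a6, Col8a1 and Col14a1 were lower after LPS in every library.

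Most fibrillar chains fell after LPS, while Col3a1 was not called in either genotype. Of the 8 tested, 5 fell in PPARα-deficient and 7 in Ppara-flox hearts, and none rose, with class medians of -0.73 and -0.94 on the log2 scale. Col5a1, a regulator of fibre diameter, was 20.6, 20.6, 18.8 and 31.5 CPM in PPARα-deficient LPS hearts, against 45.5, 56.8, 48.4 and 53.3 CPM in PPARα-deficient PBS hearts. Col5a1 was 21.1, 19.9, 29.1 and 16.8 CPM in Ppara-flox LPS hearts, against 62.1, 73, 51.2 and 48.7 CPM in Ppara-flox PBS hearts. It changed by -1.16 ± 0.18 in PPARα-deficient hearts (edgeR adjusted p = 9.74e-05) and -1.44 ± 0.18 in Ppara-flox hearts (adjusted p = 1.15e-05), with no overlap. Its partner chain Col5a2 fell as well, with log2 fold changes of -0.64 ± 0.15 in PPARα-deficient hearts and -0.92 ± 0.15 in Ppara-flox hearts (edgeR adjusted p = 0.0025 and 0.000106). The per-length ratio of Col5a1 to Col5a2 ran from 0.654 to 0.921 in PPARα-deficient LPS hearts and 0.724 to 0.863 in Ppara-flox LPS hearts, against 1.01 to 1.28 in PPARα-deficient PBS hearts and 1.06 to 1.33 in Ppara-flox PBS hearts. Col5a1 exons overlap 2 opposite-strand transcripts by 99 and 113 bases.

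Type I, the main load-bearing fibre collagen, fell in its Col1a2 chain in both genotypes. Col1a2 was 68.7, 56.5, 50.2 and 71.6 CPM in PPARα-deficient LPS hearts, against 105, 119, 113 and 109 CPM in PPARα-deficient PBS hearts (-0.85 ± 0.14, edgeR adjusted p = 0.000134). Col1a2 was 63.7, 63.4, 77.6 and 46.1 CPM in Ppara-flox LPS hearts, against 122, 139.8, 108 and 119 CPM in Ppara-flox PBS hearts (-0.96 ± 0.14, edgeR adjusted p = 4e-05). No LPS library reached a PBS library of its genotype. Col1a1 was 86.4, 67.4, 62 and 96.6 CPM in PPARα-deficient LPS hearts, against 84.3, 114, 92.2 and 108 CPM in PPARα-deficient PBS hearts, and these overlapped (-0.35 ± 0.18, edgeR adjusted p = 0.144). In Ppara-flox hearts Col1a1 was 71.2, 77.7, 105 and 54.1 CPM after LPS, against 126, 149.7, 116 and 109 CPM after PBS, and it was called lower (-0.70 ± 0.18, edgeR adjusted p = 0.00564). The difference between the 2 LPS effects on Col1a1 was 0.35 ± 0.26 (95% interval -0.19 to 0.89), which did not pass (edgeR adjusted p = 0.991), and without PPARα-deficient LPS replicate 4 and Ppara-flox LPS replicate 3 Col1a1 was also called in PPARα-deficient hearts. The per-length ratio of Col1a1 to Col1a2 averaged 1.14 ± 0.0595 in PPARα-deficient LPS hearts and 1.1 ± 0.0923 in Ppara-flox LPS hearts, against 0.804 ± 0.0895 in PPARα-deficient PBS hearts and 0.923 ± 0.0658 in Ppara-flox PBS hearts.

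Col3a1, the fibre collagen of compliant tissue, was 217, 182, 178 and 228 CPM in PPARα-deficient LPS hearts, against 175, 252, 224 and 224 CPM in PPARα-deficient PBS hearts. Col3a1 was 178, 178, 225 and 154 CPM in Ppara-flox LPS hearts, against 245, 277, 229 and 189 CPM in Ppara-flox PBS hearts. It was not called (-0.12 ± 0.14, edgeR adjusted p = 0.538 in PPARα-deficient hearts, -0.35 ± 0.14, adjusted p = 0.0547 in Ppara-flox hearts). The Ppara-flox value lay at the threshold and passed under several alternatives, among them RLE factors and DESeq2. Among the rest, Col5a3 (log2 fold change -0.81 ± 0.18 and -1.06 ± 0.18 in PPARα-deficient and Ppara-flox hearts) and Col27a1, a short fibrillar chain of cartilage and other tissues (-0.94 ± 0.18 and -0.90 ± 0.18), fell in both genotypes. Col11a2 fell in Ppara-flox hearts alone among the calls and is described with the genotype comparison.

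Microfibrillar type VI chains fell as a set of 4 tested members, all called lower in both genotypes, with medians of -1.18 in PPARα-deficient and -1.60 in Ppara-flox hearts. Col6a1 and Col6a2, the short chains of the type VI trimer, fell in both genotypes. Col6a1 was 57.9, 51.3, 42.6 and 78.3 CPM in PPARα-deficient LPS hearts, against 102, 126, 101 and 111 CPM in PPARα-deficient PBS hearts (-0.94 ± 0.19, edgeR adjusted p = 0.000842). Col6a1 was 48, 47.5, 66.9 and 36.3 CPM in Ppara-flox LPS hearts, against 113, 148, 115 and 101 CPM in Ppara-flox PBS hearts (-1.26 ± 0.19, edgeR adjusted p = 5.37e-05). Col6a2 changed by -0.86 ± 0.18 in PPARα-deficient hearts (edgeR adjusted p = 0.00119) and -1.13 ± 0.18 in Ppara-flox hearts (adjusted p = 0.000103).

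The long chains had the lowest log2 fold changes of the class, a difference from the short chains that was not tested. Col6a3, which is incorporated with the short chains, was 19.2, 22.6, 19.2 and 30.6 CPM in PPARα-deficient LPS hearts, against 56.7, 65.1, 66.9 and 58.5 CPM in PPARα-deficient PBS hearts (-1.43 ± 0.17, edgeR adjusted p = 6e-06). Col6a3 was 18.6, 11.5, 20.2 and 16.8 CPM in Ppara-flox LPS hearts, against 65.1, 77.4, 57.9 and 57.4 CPM in Ppara-flox PBS hearts (-1.94 ± 0.18, edgeR adjusted p = 2.56e-07). Every LPS library lay below every PBS library, and the per-length ratio of Col6a3 to Col6a1 averaged 0.152 ± 0.0204 in PPARα-deficient LPS hearts and 0.132 ± 0.0363 in Ppara-flox LPS hearts, against 0.214 ± 0.025 in PPARα-deficient PBS hearts and 0.205 ± 0.0135 in Ppara-flox PBS hearts. Col6a6 is an alternative long chain. It was 0.422, 0.117, 0.203 and 0.377 CPM in PPARα-deficient LPS hearts, against 6.92, 7.21, 6.17 and 4.29 CPM in PPARα-deficient PBS hearts, a 21.7-fold lower fitted level (-4.44 ± 0.45, edgeR adjusted p = 1.03e-06). In Ppara-flox hearts Col6a6 was 0.267, 0.316, 1.04 and 0.379 CPM after LPS, against 4.92, 6.68, 9.86 and 7.49 CPM after PBS, 14.3-fold lower (-3.84 ± 0.43, edgeR adjusted p = 2.62e-06). The highest LPS library, Ppara-flox replicate 3, was still below every PBS library.

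**Figure D3:**
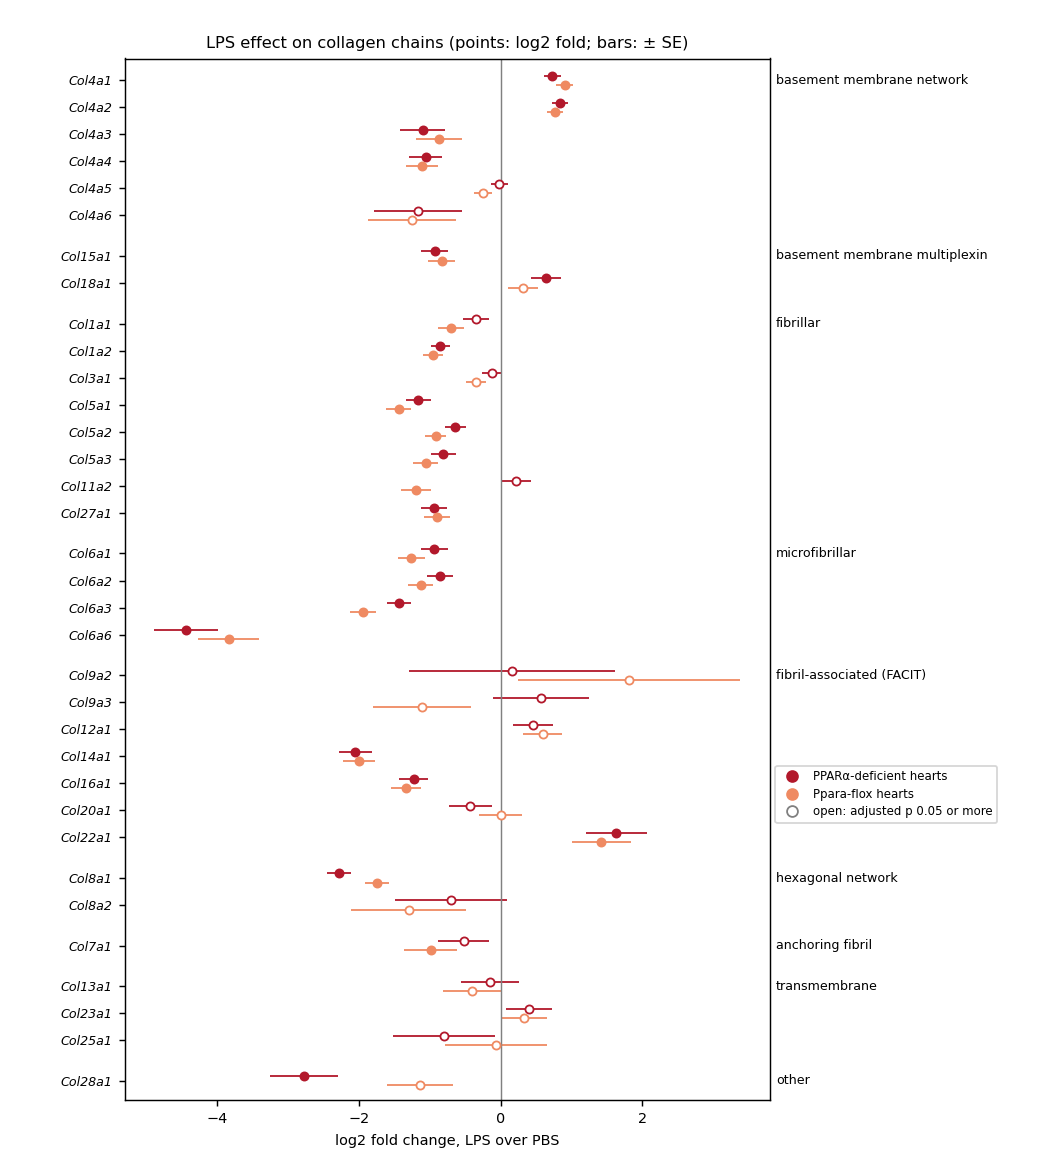
Log2 fold change of LPS over PBS (x axis) for 34 tested chains grouped by class, with SE bars, in PPARα-deficient and Ppara-flox hearts; filled points passed an adjusted p of 0.05. Col4a1, Col4a2 and Col22a1 are the chains with filled points right of 0 in both genotypes, and Col6a6 lies farthest left. Col26a1, at 0 in all PPARα-deficient LPS libraries, is left out.

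Among the FACITs, Col14a1 and Col16a1 fell and Col22a1 rose in both genotypes, and the other 4 of the 7 tested were not called. Col14a1, a fibre-coating chain, was 2.67, 3.17, 2.79 and 3.55 CPM in PPARα-deficient LPS hearts, against 10.0, 13.8, 13.4 and 13.2 CPM in PPARα-deficient PBS hearts (-2.05 ± 0.23, edgeR adjusted p = 3.52e-06). Col14a1 was 4.64, 3.44, 3.09 and 1.68 CPM in Ppara-flox LPS hearts, against 13.8, 15, 9.96 and 12.5 CPM in Ppara-flox PBS hearts (-2.0 ± 0.23, edgeR adjusted p = 4.34e-06). Its LPS libraries all lay under its PBS libraries. Col16a1 was 2.59, 3.09, 2.89 and 5.07 CPM in PPARα-deficient LPS hearts, against 8.41, 7.57, 7.36 and 8.75 CPM in PPARα-deficient PBS hearts (-1.23 ± 0.21, edgeR adjusted p = 0.000186). Col16a1 was 3.5, 3.36, 4.13 and 2.55 CPM in Ppara-flox LPS hearts, against 8.95, 10.8, 7.55 and 7.04 CPM in Ppara-flox PBS hearts (-1.34 ± 0.21, edgeR adjusted p = 8.15e-05). Again no LPS library reached a PBS library. Col22a1, a chain of tissue junctions such as that of muscle and tendon, was 1.36, 2.19, 0.915 and 1.26 CPM in PPARα-deficient LPS hearts, against 0.619, 0.417, 0.304 and 0.503 CPM in PPARα-deficient PBS hearts (1.63 ± 0.43, edgeR adjusted p = 0.0064). In Ppara-flox hearts it was 2.56, 2.37, 0.873 and 0.967 CPM after LPS, against 1.02, 0.424, 0.672 and 0.398 CPM after PBS, where the groups overlapped (1.42 ± 0.42, edgeR adjusted p = 0.0134), and without Ppara-flox LPS replicate 1 this call was lost (1.15, adjusted p = 0.0551), as it was with the PBS number series as a block (1.24, adjusted p = 0.0564).

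Col8a1, made by vascular and valve cells, had the lowest adjusted p of all chains in PPARα-deficient hearts. It was 2.94, 4.47, 3.5 and 3.8 CPM in PPARα-deficient LPS hearts, against 14, 16.5, 21.7 and 19.3 CPM in PPARα-deficient PBS hearts (4.86-fold lower, -2.28 ± 0.17, edgeR adjusted p = 3.82e-08). Col8a1 was 6.0, 5.39, 5.3 and 4.41 CPM in Ppara-flox LPS hearts, against 21.8, 15.7, 17.6 and 15.7 CPM in Ppara-flox PBS hearts (-1.75 ± 0.17, edgeR adjusted p = 4.46e-07). Every LPS library was below every PBS library. The interaction (LPS effect with the deletion less the effect without it) was -0.53 ± 0.23, which did not pass adjustment (unadjusted p = 0.0333, edgeR adjusted p = 0.835). Col8a2, its partner chain, averaged under 0.4 CPM in each group and was not called.

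Of the remaining classes, the transmembrane chains Col13a1, Col23a1 and Col25a1 were not called, apart from Col23a1 with the PBS number series as a block. Col7a1, the anchoring fibril chain, averaged 0.797 ± 0.421 CPM after LPS, against 1.59 ± 0.208 CPM after PBS in Ppara-flox hearts (-0.99 ± 0.37, edgeR adjusted p = 0.0423), a call lost in 13 alternatives. Col7a1 averaged 1.36 ± 0.463 CPM after LPS, against 1.95 ± 0.755 CPM after PBS in PPARα-deficient hearts, and was not called there (-0.52 ± 0.36, edgeR adjusted p = 0.286). Col28a1, known in mice from the glial cells of nerves, was 0.356, 0.642, 0.174 and 0.14 CPM in PPARα-deficient LPS hearts, against 3.12, 1.6, 2.01 and 2.27 CPM in PPARα-deficient PBS hearts (-2.77 ± 0.48, edgeR adjusted p = 0.000234). Every LPS library was below every PBS library there. In Ppara-flox hearts it was 0.385, 0.689, 0.911 and 0.483 CPM after LPS, against 2.32, 0.673, 1.2 and 1.25 CPM after PBS, which overlapped (-1.14 ± 0.46, edgeR adjusted p = 0.0583). The Ppara-flox value of Col28a1 lay near the threshold and passed under several alternatives, among them upper-quartile factors, DESeq2 and counts divided by 4. Summed markers of Schwann cells (5 genes, 4 tested, 2 lower in each genotype and none higher, 1 at 0 in all PPARα-deficient LPS libraries) ran from 2.26 to 4.89 CPM in PPARα-deficient LPS hearts and 1.72 to 3.31 CPM in Ppara-flox LPS hearts, against 5.79 to 8.74 CPM in PPARα-deficient PBS hearts and 5.92 to 8.7 CPM in Ppara-flox PBS hearts, and their part in the result was not tested. Col26a1 was at 0 in all 4 PPARα-deficient LPS libraries and at 0, 0.202, 0 and 0.345 CPM in PPARα-deficient PBS hearts. It was called lower there by edgeR, but the call was lost with the replicate number as a block (adjusted p = 0.0624) and without PBS replicate 4 (0.0565), and the levels allow no fold. With counts divided by 4 Col26a1 was not tested.

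The 9 chains that did not pass the filter were Col2a1, Col6a4, Col6a5, Col9a1, Col10a1, Col11a1, Col17a1, Col19a1 and Col24a1. Col9a1 had 0 counts in all 16 libraries. Several of the others are known from cartilage or skin, and their summed counts over the 16 libraries were 14 to 73, where a single read pair stands for about 4.

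Levels per exon length place the chains on a common scale within a group. In Ppara-flox PBS hearts the highest were Col4a1 with 93.7 ± 17.5, Col4a2 with 93.2 ± 15.6, Col3a1 with 42.2 ± 6.6 and Col6a1 with 29.1 ± 4.92 CPM per kb. Col4a1 and Col4a2 did not differ beyond their spread, while the 4 libraries of Col3a1 (34 to 49.8 CPM per kb) lay below all of theirs. Next came Col1a2 (22.9 ± 2.45), Col1a1 (21.1 ± 2.99), Col15a1 (19.1 ± 4.57) and Col6a2 (18.5 ± 3.2 CPM per kb), whose ranges overlapped. The first 3 places were the same in all 4 groups. In PPARα-deficient LPS hearts Col4a1 reached 169.9 ± 6.0 CPM per kb and Col6a1 14 ± 3.71 CPM per kb, against 102 ± 11.2 and 26.8 ± 2.84 CPM per kb in PPARα-deficient PBS hearts.

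Between genotypes Col11a2 was the 1 chain called, lower in PPARα-deficient hearts after PBS. After LPS 0 of the 35 chains were called by edgeR, against 1.23% of all tested genes (0.385% higher and 0.85% lower). At an unadjusted p under 0.05 there were 3 of 35 (8.57%), Col8a1, Col6a3 and Col26a1, against 9.13% of all tested genes, so this share was near the background. After PBS 1 of 35 was called, against 0.433% of all tested genes (0.0321% higher and 0.401% lower). The medians over the tested chains were -0.04 after LPS and -0.11 after PBS, against 0.01 and 0 for all tested genes. The 95% interval of Col4a1 ran from -0.28 to 0.21 after LPS and -0.12 to 0.37 after PBS, and that of Col3a1 from -0.17 to 0.42 after LPS and -0.40 to 0.19 after PBS, on the log2 scale. Col8a1 was 2.94, 4.47, 3.5 and 3.8 CPM in PPARα-deficient LPS hearts, against 6.0, 5.39, 5.3 and 4.41 CPM in Ppara-flox LPS hearts (-0.52 ± 0.16, edgeR adjusted p = 0.21). Col6a3 was 19.2, 22.6, 19.2 and 30.6 CPM in PPARα-deficient LPS hearts, against 18.6, 11.5, 20.2 and 16.8 CPM in Ppara-flox LPS hearts (0.45 ± 0.17, edgeR adjusted p = 0.371). Both comparisons had overlapping libraries.

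**Figure D4:**
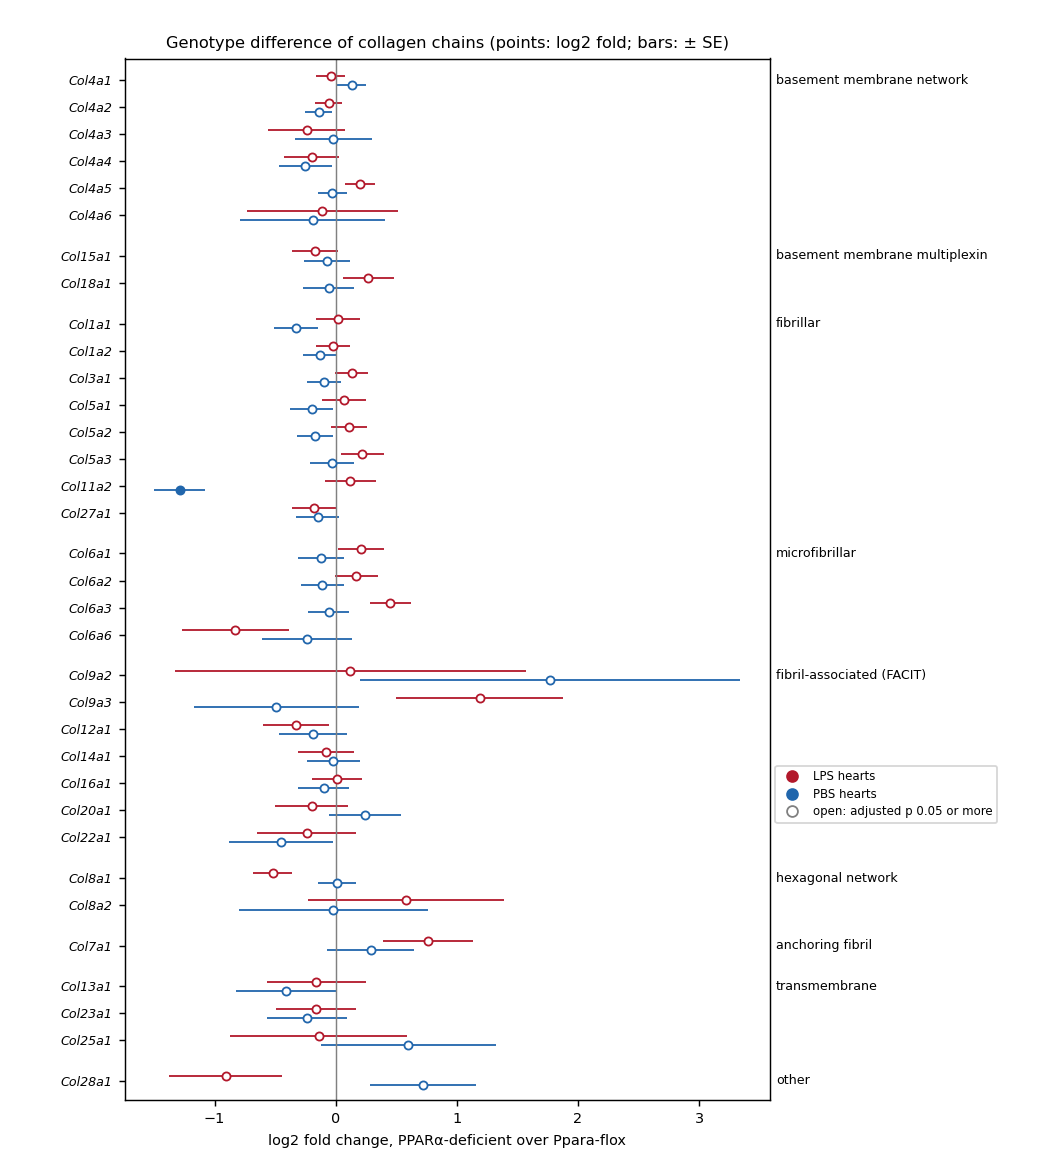
Log2 fold change of PPARα-deficient over Ppara-flox hearts (x axis) for 34 tested chains by class, with SE bars, after LPS and after PBS; filled points passed an adjusted p of 0.05. Col11a2 after PBS (-1.29) is the filled point, and most other chains lie near 0 in both treatments.

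Col11a2 encodes a minor fibrillar chain best known from cartilage and the inner ear. It lies at chr17:34039437-34066685 on the plus strand (GRCm38), 1038 bases after the end of Rxrb, the gene of a retinoid receptor that pairs with PPARα. Its promoter window is shown because it was the chain called between genotypes, with the matches to TATAAA and to GGGCGG (read on the minus strand, so written CCGCCC) in capitals. The window held no match to AGGTCA. The RefSeq start that places this window lies before the GENCODE start given above.
Col11a2 chr17:34038888-34039187 plus strand: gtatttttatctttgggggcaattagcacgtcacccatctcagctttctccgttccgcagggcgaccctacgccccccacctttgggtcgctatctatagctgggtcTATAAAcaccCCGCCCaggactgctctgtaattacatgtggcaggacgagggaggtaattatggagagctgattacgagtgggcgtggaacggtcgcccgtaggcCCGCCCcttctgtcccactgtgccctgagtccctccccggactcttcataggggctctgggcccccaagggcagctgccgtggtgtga
Col11a2 was 2.27, 2.49, 2.54 and 1.71 CPM in PPARα-deficient PBS hearts, against 6.37, 3.55, 5.44 and 6.72 CPM in Ppara-flox PBS hearts. The groups did not overlap, and the log2 fold change was -1.29 ± 0.21 (95% interval -1.74 to -0.85, edgeR adjusted p = 0.00471). After LPS it was 2.82, 2.39, 2.38 and 2.88 CPM in PPARα-deficient hearts, against 2.15, 2.01, 3.05 and 2.46 CPM in Ppara-flox hearts, which overlapped (0.12 ± 0.21, edgeR adjusted p = 0.964). Put by treatment, Col11a2 changed by 0.22 ± 0.21 with LPS in PPARα-deficient hearts (edgeR adjusted p = 0.452) and by -1.19 ± 0.21 in Ppara-flox hearts (adjusted p = 0.000239). The Ppara-flox PBS group was thus the high group and the ranges of the other 3 groups overlapped. The difference between the LPS effects was 1.41 ± 0.29 with an unadjusted p of 0.000195. In edgeR no gene of the 18713 passed this interaction test (0% called, 1075 genes at an unadjusted p under 0.05, Col11a2 at adjusted p = 0.203), and DESeq2 called Col11a2 (adjusted p = 0.00548). Neighbouring Rxrb averaged 39.2 ± 4.94 CPM in PPARα-deficient PBS hearts and 42.9 ± 9.29 CPM in Ppara-flox PBS hearts (-0.13 ± 0.16, edgeR adjusted p = 1). The 6 chondrocyte markers (3 tested, 0 called between genotypes, 1 at 0 in each PBS group) summed from 3.48 to 5.06 CPM in PPARα-deficient PBS hearts and 3.34 to 5.78 CPM in Ppara-flox PBS hearts, and their part in the result was not tested.

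In the 3 other chains at an unadjusted interaction p under 0.05, Col8a1, Col6a3 and Col28a1, the differences between LPS effects were -0.53 ± 0.23, 0.51 ± 0.24 and -1.63 ± 0.65. None passed adjustment, so a chain called in 1 genotype and not in the other is not shown to respond differently.

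Genes that fold, modify and receive collagen moved in both directions after LPS, as did genes at large. Of all tested genes, 37.7% were called with LPS in PPARα-deficient hearts (19.4% higher and 18.3% lower). In Ppara-flox hearts 39.3% were called (20.2% higher and 19.1% lower). The 17 tested genes of folding and modification in the endoplasmic reticulum included 4 higher and 6 lower in PPARα-deficient hearts, and 4 higher and 7 lower in Ppara-flox hearts, with medians of 0.06 and -0.12. Plod3, a lysyl hydroxylase and glycosyltransferase, rose by 0.77 ± 0.07 in PPARα-deficient hearts and 0.61 ± 0.07 in Ppara-flox hearts (edgeR adjusted p = 6.11e-07 and 6.53e-06). P4ha1, a catalytic subunit of prolyl hydroxylase, was 35.7, 41.3, 38.7 and 44.6 CPM in PPARα-deficient LPS hearts, against 76.1, 58.3, 88.2 and 88.7 CPM in PPARα-deficient PBS hearts (-0.96 ± 0.16, edgeR adjusted p = 0.000122), and changed by -1.20 ± 0.16 in Ppara-flox hearts (adjusted p = 1.33e-05). Its partner subunit P4hb rose by 0.44 ± 0.08 and 0.35 ± 0.08 in PPARα-deficient and Ppara-flox hearts (edgeR adjusted p = 0.000221 and 0.00145). P4ha2, another catalytic subunit, was also called lower in both genotypes. It averaged 36.8 ± 3.79 CPM after LPS, against 61.4 ± 2.9 CPM after PBS in PPARα-deficient hearts. In Ppara-flox hearts it averaged 32.6 ± 7.14 CPM after LPS, against 60.6 ± 5.9 CPM after PBS. Of this enzyme, which stabilises the collagen helix, P4ha1 and P4ha2 thus fell and P4hb rose in both genotypes. Serpinh1, the collagen-specific chaperone Hsp47, was called lower in Ppara-flox hearts (-0.61 ± 0.21, edgeR adjusted p = 0.0262) and was at 0.04 ± 0.21 in PPARα-deficient hearts (adjusted p = 0.914).

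In the same list Fkbp10 and P3h4 differed between genotypes, both lower in PPARα-deficient hearts in both treatments, and no other gene of the 17 did. The share of all tested genes called between genotypes was 1.23% after LPS and 0.433% after PBS. Fkbp10 encodes a prolyl isomerase that helps collagen fold, and P3h4 a protein of the complex that modifies collagen lysines. They lie head to head on chromosome 11, P3h4 at chr11:100408456-100414836 on the minus strand and Fkbp10 at chr11:100415697-100424824 on the plus strand, 861 bases between annotated starts. Fkbp10 was 18.2, 18.1, 11.5 and 17.5 CPM in PPARα-deficient LPS hearts, against 39.3, 40.2, 44.1 and 30.4 CPM in Ppara-flox LPS hearts (-1.24 ± 0.15, edgeR adjusted p = 0.000118). Fkbp10 was 6.63, 8.12, 7.04 and 8.68 CPM in PPARα-deficient PBS hearts, against 16.5, 19.1, 18.7 and 17.7 CPM in Ppara-flox PBS hearts (-1.24 ± 0.15, edgeR adjusted p = 0.000196). It rose with LPS by 1.10 ± 0.15 in PPARα-deficient and 1.10 ± 0.15 in Ppara-flox hearts (edgeR adjusted p = 1.88e-05 and 1.64e-05). P3h4 was 12.8, 10.2, 10.3 and 12.2 CPM in PPARα-deficient LPS hearts, against 28.8, 28.9, 35.4 and 21.5 CPM in Ppara-flox LPS hearts (-1.33 ± 0.15, edgeR adjusted p = 4.81e-05). P3h4 was 10.6, 11.7, 10.4 and 8.6 CPM in PPARα-deficient PBS hearts, against 24.7, 31.8, 29.5 and 33 CPM in Ppara-flox PBS hearts (-1.53 ± 0.15, edgeR adjusted p = 1.76e-05). The genotypes did not overlap for either gene in either treatment. Nt5c3b, which overlaps the end of Fkbp10 on the opposite strand, differed between genotypes by 0.02 ± 0.11 after LPS and 0.07 ± 0.11 after PBS and was not called.

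**Figure D5:**
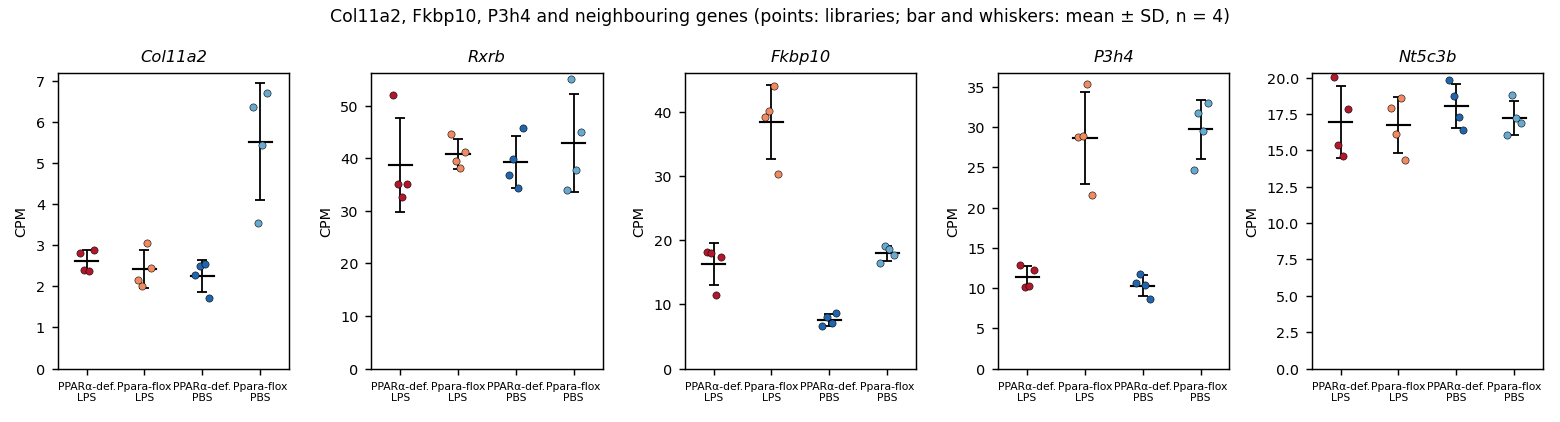
CPM (y axes, linear from 0) of Col11a2, Fkbp10, P3h4 and the neighbouring genes Rxrb and Nt5c3b in each library (points) with mean and SD (n = 4 per group). Col11a2 is high in Ppara-flox PBS hearts alone, Fkbp10 and P3h4 are lower in PPARα-deficient hearts in both treatments, and Rxrb and Nt5c3b overlap across groups.

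Other steps of the collagen pathway showed no call between genotypes, where 1.23% of all tested genes were called after LPS and 0.433% after PBS. Their calls with LPS stand against 37.7% of all tested genes in PPARα-deficient hearts and 39.3% in Ppara-flox hearts. With LPS, 1 of 6 tested export genes was lower in PPARα-deficient hearts (Sec23a, -0.33 ± 0.10) and 0 were called in Ppara-flox hearts. Of 8 genes of propeptide removal, 1 was higher and 2 lower in PPARα-deficient hearts and 1 higher and 3 lower in Ppara-flox hearts. Pcolce2, an enhancer of propeptide cleavage, fell in both (-1.08 ± 0.18 and -1.17 ± 0.18 in PPARα-deficient and Ppara-flox hearts). Of 9 collagen receptors, 2 were higher and 4 lower in PPARα-deficient hearts and 2 higher and 3 lower in Ppara-flox hearts. Itga11, an integrin chain of fibroblasts that binds fibrillar collagen, was 0.713, 0.394, 0.407 and 0.615 CPM in PPARα-deficient LPS hearts, against 3.66, 3.36, 4.29 and 4.7 CPM in PPARα-deficient PBS hearts (-2.90 ± 0.24, edgeR adjusted p = 1.34e-07), and it changed by -3.20 ± 0.25 in Ppara-flox hearts (adjusted p = 5.2e-08). Itga2, another collagen-binding integrin chain, rose by 1.49 ± 0.34 and 1.39 ± 0.34 in PPARα-deficient and Ppara-flox hearts (edgeR adjusted p = 0.00221 and 0.00344). Of 15 TGF-beta ligands, receptors, Smads and binding proteins, 3 were higher and 4 lower in PPARα-deficient hearts and 2 higher and 7 lower in Ppara-flox hearts. The receptor Tgfbr2 rose (1.15 ± 0.09 and 1.14 ± 0.09 in PPARα-deficient and Ppara-flox hearts) and the latency protein Ltbp4 fell (-1.79 ± 0.14 and -1.80 ± 0.14).

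Markers of the cells that make collagen moved with treatment too. The share of all tested genes called with LPS was 37.7% in PPARα-deficient hearts (19.4% higher and 18.3% lower). It was 39.3% in Ppara-flox hearts (20.2% higher and 19.1% lower). Of 10 fibroblast markers 2 rose (Dcn and Scara5) and 7 fell in PPARα-deficient hearts, and 2 rose and 6 fell in Ppara-flox hearts. Their sum ran from 1099 to 1283 CPM in PPARα-deficient LPS hearts and 952 to 1265 CPM in Ppara-flox LPS hearts, against 1429 to 1699.9 CPM in PPARα-deficient PBS hearts and 1460.5 to 1818 CPM in Ppara-flox PBS hearts. Of 10 smooth muscle and pericyte markers 0 rose and 8 fell in each genotype, with sums of 563 to 631 CPM in PPARα-deficient LPS hearts and 622 to 718 CPM in Ppara-flox LPS hearts, against 1180.5 to 1263 and 1239 to 1296 CPM in PPARα-deficient and Ppara-flox PBS hearts. Of 10 endothelial markers 2 rose (Cldn5 and Esam) and 3 fell in each genotype, with sums of 936 to 991 CPM in PPARα-deficient LPS hearts and 964 to 1181 CPM in Ppara-flox LPS hearts, against 1019 to 1192 and 1076 to 1165 CPM in PPARα-deficient and Ppara-flox PBS hearts. With LPS, epicardial markers had 0 calls in PPARα-deficient hearts and 1 higher in Ppara-flox hearts (of 5). Macrophage markers had 1 higher and 4 lower in each genotype (of 8), neutrophil markers 4 higher in each (of 5) and chondrocyte markers 1 lower in each (of 3 tested). Cardiomyocyte markers fell in 4 of 5 in PPARα-deficient and 5 of 5 in Ppara-flox hearts. No gene of the fibroblast, smooth muscle and endothelial lists was called between genotypes or was at 0 throughout a group. The part of these marker changes in the collagen changes was not tested.

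Promoter windows of 300 bases were found in RefSeq (GRCm38.p6) for 35 of the 44 chains, 38 windows in all. Both strands were searched for the TATA box written TATAAA, the promoter box written CCAAT, the GC box written GGGCGG, the nuclear receptor half-site written AGGTCA and an NF-κB-type motif, each counted on its own even where matches share bases. The GC box, known as the site of Sp1, was present in 60.5% of the collagen windows and 35.7% of all 32851 windows. TATAAA was in 13.2% of collagen and 13.6% of all windows, CCAAT in 34.2% and 37.4%, and AGGTCA in 21.1% and 16.3%. The NF-κB-type motif was in 0 of the 38 collagen windows and 0.4% of all. These are matches of letters, and the windows of gene pairs such as Col4a1 and Col4a2 share bases.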

How the data were processed

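Heart RNA was sequenced in 16 stranded libraries, per the labels' protocols. Tools listed in the submitters' processing notes are StringTie 1.3.3b, HISAT, fastp 0.23.2 and DESeq2 1.30.1, with the build GRCm38. Which tool counted, from which annotation and with which strand setting, is not given in the sources used here. The extraction text in the labels speaks of islets while tissue and source name the heart. The deposited tables hold estimated counts (expected counts) per gene symbol, not scaled between samples. Symbols turned into dates by a spreadsheet (27) were left out and repeated symbols summed. All values were whole numbers, so no rounding was needed. Totals divided by 4 (16392284 to 18859006) are nearer to the read pairs counted. A floor of 12 counts (3 read pairs) was set, but the filter on low counts used its own cutoff of 0.138 CPM.

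Genes were filtered with filterByExpr on the 4 groups, scaled with TMM factors and fitted in edgeR 4.0.16 (R 4.3.3, glmQLFit) as 4 group means over 16 libraries. Each comparison was tested with glmQLFTest and adjusted by Benjamini-Hochberg over 18713 genes, without a fold minimum. The standard error is the log2 fold change divided by the root of F. Lengths are union exons of basic protein-coding transcripts in GENCODE vM21 (GRCm38). The model was run on simulated counts drawn independently with its own fitted spread and the same LPS changes in both genotypes. That run cannot show how shifts shared by many genes of a library affect the calls, or how well genotype differences are found. Tables and figures used Python 3.11.15, pandas 2.3.3, numpy 2.4.6 and matplotlib 3.10.9.

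The members, classes and lists were chosen with earlier results of these data known. Every chain could be named. Values in each library were given for up to 4 called chains a class with the smallest adjusted p, for chains called between genotypes and for the chain of each class with the highest level per kb, with other chains added. Of each pathway or marker list, up to 4 genes with the smallest adjusted p were named, and Itga2, P4ha2, P4hb, Rxrb and Nt5c3b were named after their values were seen. Alternatives were RLE and upper-quartile factors, no filter, at least 1 CPM in 8 libraries, DESeq2 1.42.0, counts divided by 4, a replicate block, the 8 libraries compared and each library left out. Added after the data were seen were the 2 pairs of LPS libraries left out together and a block for the 2 number series of the PBS column headers. The second series held PBS replicates 3 and 4 of each genotype and no LPS library. Over 24 same-number pairs the deviations from group means correlated at -0.066 to 0.075. Ppara-flox LPS replicate 4 with PPARα-deficient LPS replicate 3 reached 0.156, and Ppara-flox LPS replicate 3 with PPARα-deficient LPS replicate 4 reached 0.12. These are the pairs left out together. The same-number values show no pairing by replicate number but cannot exclude it.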

Additional observations from a re-analysis of the deposited data

Results flagged for a closer look

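In 139 sets of 4 libraries (1 chain in 1 group), 10 had a library farther from the other 3 than Dixon's 95% critical value for 4 samples allows, and chance flags about 1 in 20 sets. In PPARα-deficient LPS hearts, Col5a1 was 31.5 CPM in replicate 4 (others 18.8 to 20.6) and Col27a1 2.41 CPM in replicate 2 (others 1.93 to 1.98). In Ppara-flox LPS hearts, Col6a2 was 71.4 CPM in replicate 3 (others 42.3 to 46.7), Col6a6 1.04 CPM in replicate 3 (others 0.267 to 0.379) and Col8a2 0 CPM in replicate 1 (others 0.157 to 0.177). In PPARα-deficient PBS hearts, Col14a1 was 10.0 CPM in replicate 1 (others 13.2 to 13.8), Col7a1 3.08 CPM in replicate 1 (others 1.54 to 1.59) and Col9a2 0.215 CPM in replicate 2 (others 0.0287 to 0.0553). In Ppara-flox PBS hearts, Col18a1 was 19.6 CPM in replicate 2 (others 10.6 to 11.4) and Col9a2 0.0996 CPM in replicate 1 (others 0). The Col8a2 and Col9a2 values correspond to a few read pairs. The libraries named for Col6a2, Col6a6 and Col5a1 are those in which most chains were the highest of their LPS group.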

How the results depend on the processing

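Of 43 called results for single chains, 38 kept their call under every alternative that tested them and 5 lost it under at least 1 (a minimum of 1 CPM in 8 libraries leaves Col22a1, Col26a1 and Col28a1 untested), and no called direction reversed. Col26a1 was also left untested with counts divided by 4 and in the fit to the 8 libraries compared. Lost at times were Col18a1 and Col26a1 in PPARα-deficient hearts and Col4a3, Col7a1 and Col22a1 in Ppara-flox hearts, with LPS effects. The number of chains called with LPS ran from 18 to 21 in PPARα-deficient hearts and 18 to 24 in Ppara-flox hearts. With the replicate number as a block it was 20 in each, the calls of Col26a1 (adjusted p = 0.0624) and Col7a1 (0.0628) being lost, and this block changed no other call of a chain. With the PBS number series as a block, 21 chains were called in PPARα-deficient hearts (20 shared, Col18a1 lost and Col23a1 added). In Ppara-flox hearts 23 were called (19 shared), with Col7a1 (adjusted p = 0.0649) and Col22a1 (0.0564) lost and Col3a1, Col4a5, Col12a1 and Col23a1 added. The genotype call of Col11a2 after PBS stayed under each alternative (log2 fold change -1.45 to -1.18, highest adjusted p 0.034, in the fit to the 8 libraries compared). The interaction count of 0 chains became 1 higher under DESeq2, which is Col11a2. At these depths chains under about 1 CPM rest on few read pairs, so their absence from the calls is not evidence of equal levels.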
